A study of Mus musculus with 4 samples.

Results

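The peak list of Mettl3-deleted macrophages holds 38697 regions in which RNA fragments pulled down with an antibody against N6-methyladenosine (m6A) were enriched over the fragments before the pulldown. Every region of that list was taken, which is 38697 of the 75204 regions in the 2 lists of the study. They fell in 13993 named genes. The study compared 2 genotypes of bone-marrow-derived macrophages of the C57BL/6 strain, grown from marrow with M-CSF for 7 days and then kept for 24 h together with MC38, a carcinoma line from the mouse colon. Both genotypes carried floxed Mettl3 alleles. The cells called WT were Mettl3fl/fl, and the cells called cKO were LysM-cre, Mettl3fl/fl, with Cre expressed from the lysozyme M promoter and so in cells of the myeloid lineage. Each genotype had 1 immunoprecipitated (IP) library and 1 input library, with nothing in the labels on separate cultures or animals. All differences are therefore between single libraries, and none has a test or a replicate check.

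m6A is the most common internal modification of messenger RNA. A complex of Mettl3, which carries the catalytic site, Mettl14, which helps to hold the RNA, and the adaptor Wtap writes it, mostly at adenosines within the sequence context DRACH, of which GGACT is the best-known form. It is known to cluster around stop codons, in 3' UTRs and in long internal exons. Other enzymes write m6A outside that context, among them Mettl16, which acts on hairpins of the Mat2a 3' UTR. Antibodies against m6A also bind m6Am, a related mark next to the cap at the transcript start.

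The RNA context of the peaks that carry the results was read from GENCODE M21 transcripts on mm10. The first set shows the GGACT (capitals) nearest to the midpoint of the exonic part of 7 of the 10 peaks with the lowest adjusted p in the cKO list. The other 3 of these 10 peaks, in Pde4b, Zbtb7b and Brwd1, held no GGACT in their exonic part.
Thap7, coding sequence, chr16:17528208-17528236, minus strand: ggaccatgtacaGGACTttgctatgcagt
Spen, coding sequence, chr4:141522192-141522220, minus strand: agtgctgcccggGGACTggacgagacagt
Dhx9, 3' UTR, chr1:153456048-153456076, minus strand: gctattaagactGGACTctgtcggagcct
Camk2n1, 3' UTR, chr4:138457486-138457514, plus strand: taacttttctacGGACTgatgctttggga
Pdik1l, coding sequence, chr4:134278568-134278596, minus strand: acgtaaagcaggGGACTgaaattgtgcct
Jun, 3' UTR, chr4:95050125-95050153, minus strand: ggtacacaagatGGACTgggttgcgacct
Tnfsf9, coding sequence, chr17:57107454-57107482, plus strand: accaccagctttGGACTctttcttgtgaa
The site shown for Dhx9 lay 4 nt after the stop codon and that for Jun 125 nt after it. Those exonic parts were long, 1700 nt in Dhx9 and 3189 nt in Jun, which is a single-exon gene. A string of letters in such a peak is therefore a candidate position and not a mapped site.

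A second set comes from Jak1, a kinase that passes on cytokine signals, and Socs3, an inhibitor of that pathway. Their sites lay 488 nt and 285 nt after the stop codon.
Jak1, 3' UTR, chr4:101152990-101153018, minus strand: tgctaccttttaGGACTgaagttttaagc
Socs3, 3' UTR, chr11:117967251-117967279, minus strand: cctttgacaagcGGACTctcccctcccct

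The third set shows 3 of the 6 strings of the type that Mettl16 recognises in the Mat2a 3' UTR, with the letters searched (TACAGAGAA or TACAGAAAA, transcript strand only) in capitals. Mat2a encodes the enzyme that makes S-adenosylmethionine, the methyl donor of m6A.
Mat2a, 3' UTR, chr6:72433451-72433479, minus strand: ccttgtgataTACAGAGAAgtcacagggc
Mat2a, 3' UTR, chr6:72433046-72433074, minus strand: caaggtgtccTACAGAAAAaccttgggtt
Mat2a, 3' UTR, chr6:72432938-72432966, minus strand: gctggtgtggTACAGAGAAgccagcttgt

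The labelled cell type was checked against marker genes. All 15 macrophage markers had a cKO peak, as did 10 of 10 mesenchymal markers, 5 of 12 epithelial and carcinoma markers, 2 of 8 neutrophil, 3 of 9 lymphoid, 2 of 5 dendritic and 0 of 6 erythroid and mast cell markers. Of all protein-coding genes 54.6% had one. The epithelial markers with a peak were Cdh1, Krt18, Krt19, Krt8 and Cldn3, at log2 IP over input between 1.40 and 1.95. Epcam and Lgr5 had none in either list. RNA of MC38 cells, which the labels do not describe as Mettl3-deleted, and RNA of the macrophages cannot be told apart in these lists. The part of other cells in the results was not tested. Mettl3 itself had 4 cKO peaks, between 0.86 and 1.80, and 2 WT peaks, at 1.37 and 1.33. A peak in the gene does not check the deletion, because it reports the IP over the input of whatever transcript is left.

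The cKO map gave most genes few peaks. The 13993 genes held 2.76 peaks on average and 2 at the median. A single peak was listed for 4757 genes (34.0%), 2 peaks for 3216 genes (23.0%), 3 for 2245 (16.0%), 4 to 9 for 3606 (25.8%) and 10 or more for 169 (1.21%). In the WT list, which had 36507 peaks in 13832 genes, the mean was 2.64, and 117 genes (0.846%) had 10 or more. Of the annotated protein-coding genes, 11989 of 21951 had a cKO peak (54.6%).

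The 10 genes with the most cKO peaks have long transcripts. Dst, a linker of cytoskeletal filaments, had 28 peaks (30 in the WT list), Syne1, a nuclear envelope protein that ties the nucleus to actin, had 22 (16), and Macf1, a linker of actin and microtubules, had 15 (21). The transcription factors Zbtb20, Cux1 and Zeb2 had 19 (8), 17 (15) and 16 (12). Zfyve26 had 16 (13), the ubiquitin ligase Herc1 had 15 (12), and the histone methyltransferases Kmt2d and Nsd2 had 15 each (16 and 10). Their longest coding transcripts ran from 7786 nt in Nsd2 to 27908 nt in Syne1. Per kb of transcript, the values ran from 0.64 peaks in Macf1 to 1.93 in Nsd2.

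Peak number followed transcript length across genes. In 5 equal classes of length, with medians of 1283, 2202, 3109, 4270 and 6640 nt, protein-coding genes with a peak had 1.64, 2.21, 2.73, 3.45 and 4.93 cKO peaks on average. Per kb the order was the reverse, from 1.33 peaks in the shortest class to 0.66 in the longest. The share of genes whose strongest peak reached 4-fold went from 28.9% to 60.8% over the same classes. Long transcripts thus held more peaks and more often a strong one, while their peaks were sparser. Genes share the same libraries and are not replicates, so no p is given.

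Enrichment was described by the authors' own log2 IP over input at each peak. Peaks of 4-fold or more (log2 of at least 2) numbered 7740, or 20.0% of the list. At the level of genes, the strongest peak had a median log2 of 1.88 (middle 50% of genes, 1.47 to 2.57), and 6141 genes (43.9%, 95% interval 43.1 to 44.7) had a peak of 4-fold or more. In the WT list 6159 genes (44.5%) did. The strongest peak of a gene lay in the 3' UTR for 69.5% of genes, in an exon of a noncoding RNA for 14.3%, in exons outside those regions (the authors' exonic name) for 7.28%, in a 5' UTR for 6.55% and in an intron for 2.29%. Peaks in the 3' UTR alone were found in 4810 genes (34.4%), under the 3' UTR and exonic names in 4535 (32.4%), and under the 5' UTR, exonic and 3' UTR names in 1333 (9.53%). The 3' UTR name took 55.7% of all cKO peaks and 61.9% of those of 4-fold or more, and the exonic name 11.3% of the latter. Peaks of the exonic name were the weakest of these 4 regions, with a median log2 of 0.92 and 9.99% at 4-fold or more, against 1.42 and 22.2% in 3' UTRs, 1.28 and 21.7% in 5' UTRs, and 1.67 and 37.9% in exons of noncoding RNAs.

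**Figure D1:**
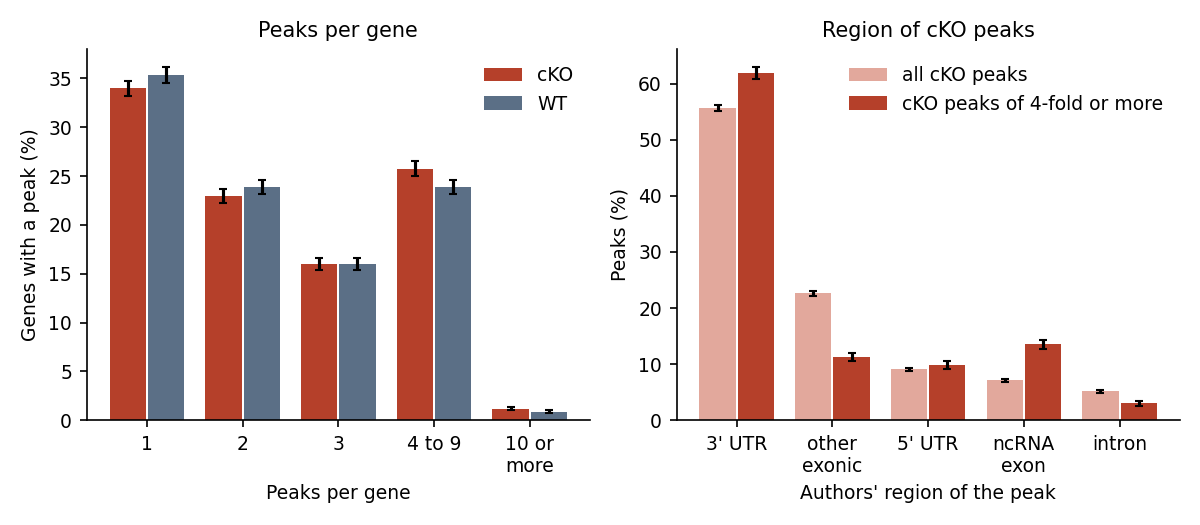
Left, share of the genes with a peak (percent) by number of peaks, for the cKO and WT lists. Right, share of all cKO peaks and of cKO peaks of 4-fold or more (percent) by the region the authors named. Bars are shares and lines exact 95% intervals for counting error. A single peak was the commonest count, and the 3' UTR name took 55.7% of all cKO peaks and 61.9% of those of 4-fold or more.

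The 10 peaks of lowest adjusted p, all listed at 0, had similar values in both lists. In order of cKO log2 they were in Thap7 at 5.23 (5.41 in the WT list), Spen at 5.19 (5.18), Pde4b at 5.17 (5.09), Dhx9 at 4.90 (4.91), Zbtb7b at 4.88 (4.76), Camk2n1 at 4.87 (4.72), Pdik1l at 4.83 (4.36), Brwd1 at 4.76 (5.06), Jun at 4.68 (4.76) and Tnfsf9 at 4.67 (5.11). The cKO value was the higher one in 5 of these 10. Spen is a large RNA-binding repressor, Pde4b a phosphodiesterase that degrades cAMP, Dhx9 an RNA helicase, Camk2n1 an inhibitor of the kinase CaMKII, Jun a subunit of the AP-1 transcription factor and Tnfsf9 the 4-1BB ligand, which stimulates T cells. The Jun peak (chr4:95049034-95052222, minus strand, mm10) covered the gene's single exon from end to end, including the 3' UTR site shown above. The Tnfsf9 peak (chr17:57105350-57107757, plus strand) ran across an intron with 1265 nt of exon.

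In all, 1218 cKO peaks (3.15%) had an adjusted p listed as 0, and all 1218 overlapped a WT peak. Their median log2 was 2.58, and 86.2% carried the 3' UTR name. They were long, with a median exonic part of 1417 nt. At the 922 that matched a WT peak one to one, the median difference, cKO minus WT, was -0.19, and 29.8% were higher in the cKO.

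The highest log2 values of the list belonged to other genes and to peaks with much larger adjusted p. The maximum of 9.80, in a 5' UTR, and a noncoding RNA peak at 9.46 were in gene models of the Gm series, which are left out here. Among the other genes Nxph1 stood at 9.57 (adjusted p of 3.34e-06, as listed by the authors), St8sia1 at 9.0, Baiap3 at 8.63, Bahcc1 at 8.54, Kbtbd8 at 8.50, Foxs1 at 8.48, Gdf9 at 8.46, Tmie at 8.41, Fbxl21 at 8.34 and Ropn1l at 8.33 (adjusted p of 5.13e-05). These 10 all overlapped a WT peak, at between 2.19 and 9.30, and only St8sia1 had the higher value there. These 10 were chosen by the cKO value, so the gap to the WT list is a description of that choice. The wider set of 145 peaks with a log2 of at least 6 had a median adjusted p of 1.83e-04 and none listed at 0, and 75 of them (51.7%) overlapped a WT peak.

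Positions along the transcript were taken from the midpoint of each peak's exonic part on the gene's longest coding transcript, which placed 32484 of the 38697 peaks (83.9%). Peak position differed with strength. In 5 equal classes of cKO peaks, with median log2 of 0.72, 0.96, 1.30, 1.68 and 2.62, the share within 200 nt of the stop codon was 11.7%, 12.3%, 18.2%, 23.0% and 24.6%. The WT list gave 11.8%, 14.5%, 19.0%, 22.6% and 23.7%. The share within 200 nt of the transcript end took another form. It was 2.01% in the weakest class, 9.18%, 24.3% and 27.1% in the next 3, and 13.3% in the strongest. In the WT list these shares were 4.86%, 16.0%, 27.9%, 21.9% and 6.97%. The highest share was thus in the fourth class of the cKO list and in the third of the WT list, and transcript-end peaks made up 13.3% of the strongest cKO class against 7.36% of the WT peaks of 4-fold or more. The share within 200 nt of the transcript start, where m6Am would lie, was 3.73%, 5.85%, 3.80%, 2.51% and 2.86%.

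**Figure D2:**
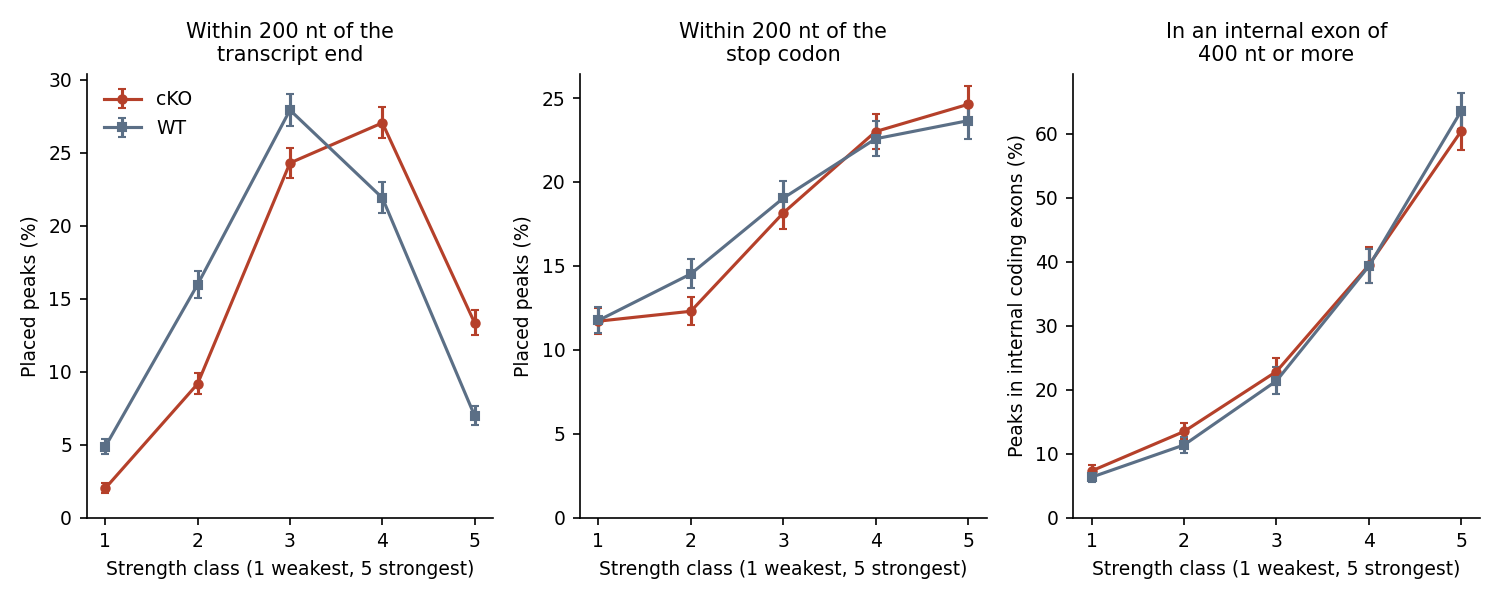
Share of peaks (percent) in 5 classes of log2 IP over input within 200 nt of the transcript end, within 200 nt of the stop codon, and, of peaks in internal coding exons, in exons of at least 400 nt, for the cKO and WT lists with exact 95% intervals for counting error. The transcript-end share was highest in the fourth cKO class (27.1%), and the long-exon share reached 60.5% in the strongest.

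Peaks were placed at the stop codon by their midpoint. The strongest of these in the cKO list, among those with an adjusted p in the lowest 10%, were in Purg at 5.33 (4.87 in the WT list), Pdik1l and Brwd1, given above, and Tagap at 4.70 (4.53). Next came Acvr2a at 4.69 (4.87), Ier5l at 4.68 (5.40), Srrd at 4.66 (5.07), Sertad3 at 4.63 (4.92), Sap130 at 4.58 (4.87) and Ogfrl1 at 4.57 (4.65). The Purg peak, which the authors named 5' UTR, ran from the gene's start to its end. Those of Ier5l and Sertad3 covered nearly the whole gene. For such peaks the midpoint does not show where the enrichment lay. Tagap is a GTPase-activating protein of leukocytes, and Acvr2a an activin receptor. Of the 10 stop codon peaks, 9 held a GGACT in the exonic part, which ran from 80 nt in Brwd1, the one without, to 2600 nt in Ier5l. Against the WT list 7 of the 10 stood lower. The corresponding peaks at transcript starts were in Tet3 at 4.05 (4.14), Sfswap at 3.53 (3.81), Commd5 at 3.36 (3.60), Tapbp at 3.18 (3.39), Nme3 at 3.09 (3.16), Il4i1 at 2.82 (3.11), Casc3 at 2.59 (2.99), Cpne1 at 2.59 (2.81), Fam32a at 2.25 (2.24) and Rab5a at 2.11 (2.32). Tet3 oxidises methylated cytosine in DNA, Tapbp loads peptides onto MHC class I, Il4i1 is a secreted amino acid oxidase of macrophages and dendritic cells, and Rab5a directs early endosomes. None of these 10 held a GGACT in its exonic part, which ran from 34 nt in Commd5 to 376 nt in Sfswap, and 9 stood lower than in the WT list.

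Strong coding-sequence peaks lay in long exons. Among cKO peaks with a midpoint in an internal exon of the coding sequence, the share in exons of at least 400 nt was 7.33% (294 of 4009) in the weakest class, then 13.5%, 22.9% and 39.5%, and 60.5% (644 of 1065, 95% interval 57.5 to 63.4) in the strongest. The WT peaks of 4-fold or more gave 63.0%. In the annotation, 2.66% of internal coding exons have that length and hold 16.8% of the bases. The median host exon went from 148 nt in the weakest class to 624 nt in the strongest, against 122 nt over all such exons. Of coding-sequence midpoints, 7.50% of the weakest and 53.2% of the strongest class lay in the last exon of the transcript.

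The motif was searched on the transcript strand in windows of 201 nt around each midpoint. GGACT, which is one form of DRACH, stood in 21.0% of all such cKO windows. By strength class the share was 20.0%, 19.0%, 19.4%, 21.4% and 25.0% (95% interval 24.0 to 26.0 in the strongest), and it was 26.6% for WT peaks of 4-fold or more. By place it was lowest at the transcript end (17.5%) and higher at the stop codon (25.6%, and 31.5% at 4-fold or more). At the transcript start it was 24.3%, in 5' UTRs 27.6%, in coding sequence 20.9% and in 3' UTRs 19.8%. DRACH (by name) stood in 98.1% of windows and so separated nothing as a presence call. Its density in exonic parts was 21.8 per kb in the strongest and 20.8 per kb in the weakest class. It was 14.4 per kb at transcript starts and 19.7 per kb at transcript ends. Base composition moved with these places, with a median GC content of 62.7% at the start, 50.2% at the stop codon and 43.8% at the end, and its part in the motif shares was not tested.

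Most of the WT map was found again in the cKO list. Of all cKO peaks 71.3% overlapped a WT peak, and of cKO peaks of 4-fold or more 83.0% did. Read from the other side, 6536 of 7756 WT peaks of 4-fold or more (84.3%, 95% interval 83.4 to 85.1) overlapped a cKO peak, and 5083 (65.5%) overlapped one of 4-fold or more. Of the 1222 such WT peaks with an adjusted p listed at 0, all 1222 overlapped a cKO peak and 1111 (90.9%) one of 4-fold or more. At the level of genes, 5781 of 6159 genes with a WT peak of 4-fold or more (93.9%) had a cKO peak, and 4659 (75.6%) had one of 4-fold or more. How IP was scaled to input in each list is not given in the sources used here, so a loss that touched all peaks alike may not show in these shares.

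Enrichment at the 19387 one-to-one matches with WT peaks differed with the place in the transcript. Over all of them the cKO value was the higher one in 54.8%, with medians of 1.45 (cKO) and 1.32 (WT). At the 3798 peaks near a transcript end the medians were 1.49 and 1.26, the median difference was 0.23, and 75.1% (95% interval 73.7 to 76.4) were higher in the cKO. At the stop codon (2778 peaks) the median difference was -0.01 with 48.5% higher, in coding sequence (4750) -0.03 with 45.5%, elsewhere in the 3' UTR (4561) 0.03 with 53.9%, elsewhere in the 5' UTR (445) -0.01 with 48.8%, and at the transcript start (501) 0.03 with 54.3%. Transcript-end peaks were thus the one place of the 6 in which more than 60% of the matched peaks were higher.

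**Figure D3:**
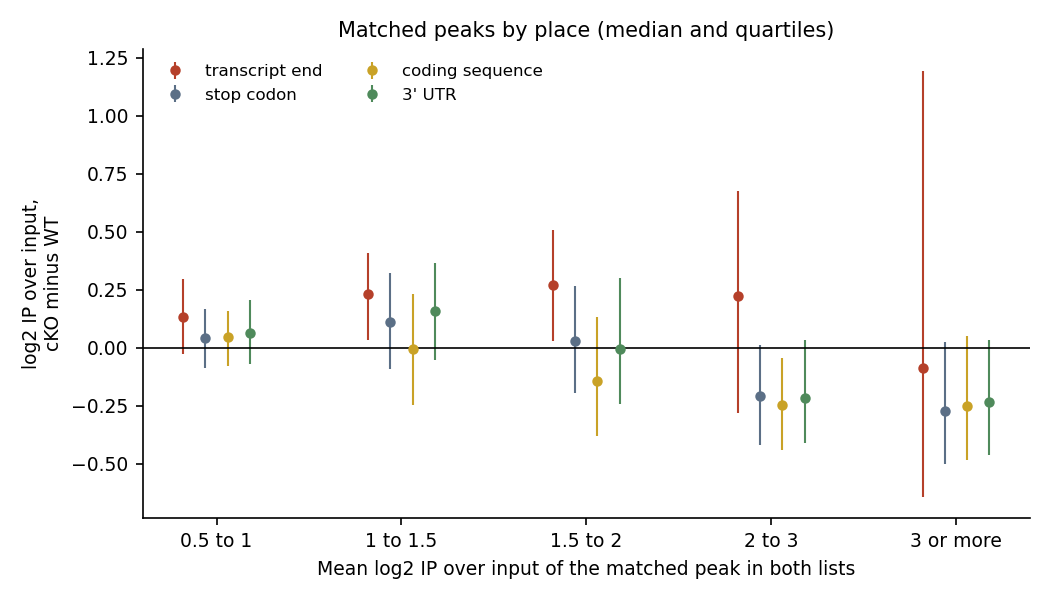
Difference in log2 IP over input, cKO minus WT, at matched peaks (points are medians, lines run between the quartiles) by place in the transcript and by the mean log2 of the 2 lists. Medians of transcript-end peaks lie above 0 up to a mean log2 of 3, while those at stop codons, in coding sequence and in 3' UTRs lie below 0 from 2 upwards.

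The difference between places was also seen at equal strength. For a mean log2 of the 2 lists between 1 and 1.5, transcript-end peaks had a median difference of 0.23 with 78.3% higher in the cKO, stop codon peaks 0.11 with 65.8%, and other 3' UTR peaks 0.16 with 70.0%. Between 2 and 3, transcript-end peaks had 0.22 with 61.0% (300 peaks), whereas stop codon peaks had -0.21 with 25.9% (563), coding-sequence peaks -0.24 with 20.6% (730) and 3' UTR peaks -0.21 with 27.3%. At 3 or more, the values were -0.09 at the transcript end (60 peaks, 43.3% higher), -0.27 at the stop codon (344, 26.5%) and -0.25 in coding sequence (27.7%). Strong peaks at stop codons, in coding sequence and in 3' UTRs were thus mostly lower in the cKO list. Strong peaks elsewhere in 5' UTRs stood nearer to 0, with -0.05 (70 peaks, 41.4% higher) between 2 and 3 and -0.04 (44 peaks) at 3 or more, and those at transcript starts had -0.07 (65 peaks, 46.2% higher) and -0.20 (31 peaks, 38.7%).

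All 8 genes of the writer complex held a cKO peak, and 6 held one of 4-fold or more. Among all protein-coding genes 54.6% had a cKO peak, and 43.7% of those had one of 4-fold or more. Mettl14, the RNA-binding partner of Mettl3, had 6 cKO peaks. The strongest, at 3.05 (adjusted p of 0.00106, as listed by the authors), was 100 nt long and overlapped no WT peak. The next, at 2.98, overlapped the strongest WT peak of the gene, at 1.74. Wtap, the adaptor, stood at 2.13 and 2.17 at the peaks where the WT list had 2.86 and 2.85. Among the other adaptors, Rbm15 stood at 2.97 (3.40) and Rbm15b at 3.43 (3.80), both RNA-binding proteins that guide the complex, Zc3h13 at 2.33 (2.66), Virma at 1.99 (2.04) and the ubiquitin ligase Cbll1 at 2.58 (2.50), with the strongest WT peak in parentheses. Of the 8 genes, 5 had a lower strongest peak in the cKO list than in the WT list. Of the 9 matched peaks in these genes, 5 were higher in the cKO list (55.6%, against 54.8% of all matched peaks).

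By their strongest peak, genes of the other adenosine methyltransferases stood higher in the cKO list in 5 of 6 cases, where 50.5% of all 13022 genes with a peak in both lists did. Of their 7 matched peaks 4 were higher (57.1%, against 54.8% of all matched peaks). Mettl16 was at 1.62 (1.30), Mettl5, which methylates ribosomal RNA, at 2.80 (2.08), its partner Trmt112 at 1.70 (1.43), Zcchc4, another ribosomal RNA enzyme, at 2.41 (2.26), and Pcif1, the enzyme of cap-adjacent m6Am, at 1.83 (1.78), while Mettl4 was at 1.36 (2.03). Readers and erasers had a peak in 14 of 15 genes, with 3 (21.4%, below the 43.7% of all genes) at 4-fold or more, and Igf2bp3 had none. The cytoplasmic readers Ythdf3 and Ythdf2, which bind m6A and promote decay of the RNA, stood at 3.31 (3.49) and 2.61 (2.88), and the nuclear reader Ythdc1 had 7 peaks and the same strongest value of 2.98 in both lists. The demethylases Fto and Alkbh5 reached 1.52 and 1.30.

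**Figure D4:**
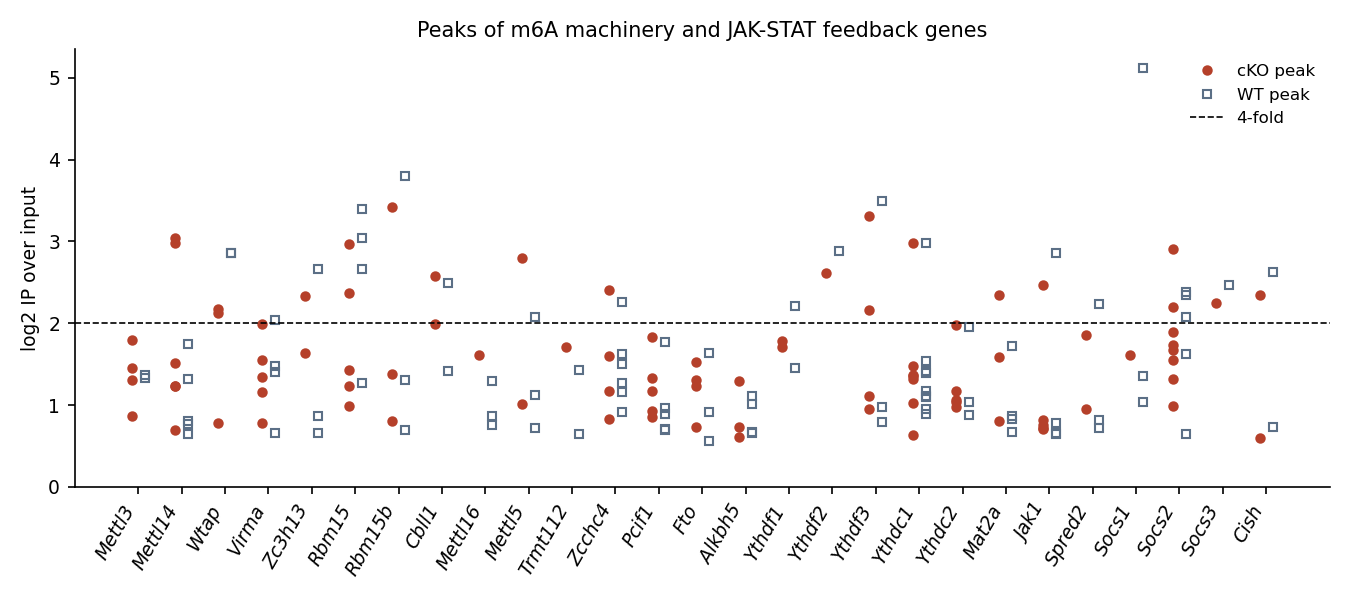
Log2 IP over input of each peak in genes of the m6A machinery, Mat2a and JAK-STAT feedback genes, 1 point per listed peak, cKO filled and WT open, with 4-fold as a dashed line. A Mettl14 3' UTR peak (2.98 against 1.74 at the overlapping WT peak) stands higher in the cKO list, and the Wtap peaks (2.13 and 2.17 against 2.86 and 2.85) lower. The strongest cKO peak of Mettl14, at 3.05, overlapped no WT peak.

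Mat2a kept its 3' UTR peak. The cKO list had a single peak at chr6:72432799-72433923 (minus strand, mm10) with a log2 of 2.35 (adjusted p of 1.16e-116, the authors'), where the WT list had one at chr6:72432799-72433323 at 1.73 (2.35e-62) and another at chr6:72433574-72433823 at 0.67. The cKO peak held 5 of the 6 Mettl16-type strings, at 823, 1002, 1117, 1228 and 1336 nt after the stop codon, among them the 3 printed above. It was the only cKO peak with 5 or more. The remaining string lay nearer to the stop codon under a weaker peak, at 0.81 in the cKO list and 0.83 in the WT list. Elsewhere the strings were rare, in 467 of 36498 exonic parts (1.28%) and 0.552% of the 201-nt windows. At the 290 matched peaks with at least 1 string the median difference, cKO minus WT, was -0.01, against 0.04 at those with none, so peaks with these letters were not higher as a group. Among 15 genes of methionine and S-adenosylmethionine metabolism with a peak, 5 reached 4-fold (33.3%, against 43.7% of all protein-coding genes with a peak). Among them were Ahcyl2 at 3.26 (3.20 in the WT list), Mtap at 2.79 (3.31) and Shmt1 at 2.59 (2.05).

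Gene families differed in how often a gene had a strong peak. Of the 11989 protein-coding genes with a cKO peak, 43.7% had one of 4-fold or more, which is the level to read the following shares against. That share also rose with transcript length, from 28.9% in the shortest class to 60.8% in the longest. The part of length in the family shares was not tested. C2H2 zinc-finger genes, the largest family of DNA-binding transcription factors, were far above it, with 241 of 325 genes (74.2%, 95% interval 69.0 to 78.8, against 77.4% in the WT list). Their strongest peaks were in Zfp64 at 7.61 (5.16 in the WT list), Zfp277 at 7.20 (1.41), Zfp383 at 7.08 (2.08) and Zfp493 at 6.85 (3.54), and Zfp114 and Zfp184 had none. These peaks belong to those with a log2 of at least 6, and their adjusted p, as listed by the authors, ran from 2.31e-04 to 8.36e-04. The listed cKO input FPKM was 1.06 for Zfp64, 1.29 for Zfp277 and 0.53 for Zfp383. Kinesins, the microtubule motors, had 16 of 22 (72.7%, 49.8 to 89.3, against 54.5%). They were led by Kif26b at 5.00 (2.80), Kif3b at 3.08 (3.37), Kif20b at 3.07 (2.60) and Kif24 at 2.77 (4.10). Of these, Kif26b had a listed cKO input FPKM of 0.21, Kif24 of 0.32 and Kif3b of 9.29. Chemokine and interleukin receptors had 25 of 39 (64.1%), Trim ubiquitin ligases 27 of 43 (62.8%), Kruppel-like factors 8 of 13 (61.5%, 31.6 to 86.1), and F-box genes 55.3% (40.1 to 69.8). The intervals of the Kruppel-like factors and F-box genes include the 43.7% of all genes. Trim41 stood at 4.02 (4.83), Klf3 at 4.75 (5.30) and Klf13 at 4.09 (4.44).

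**Figure D5:**
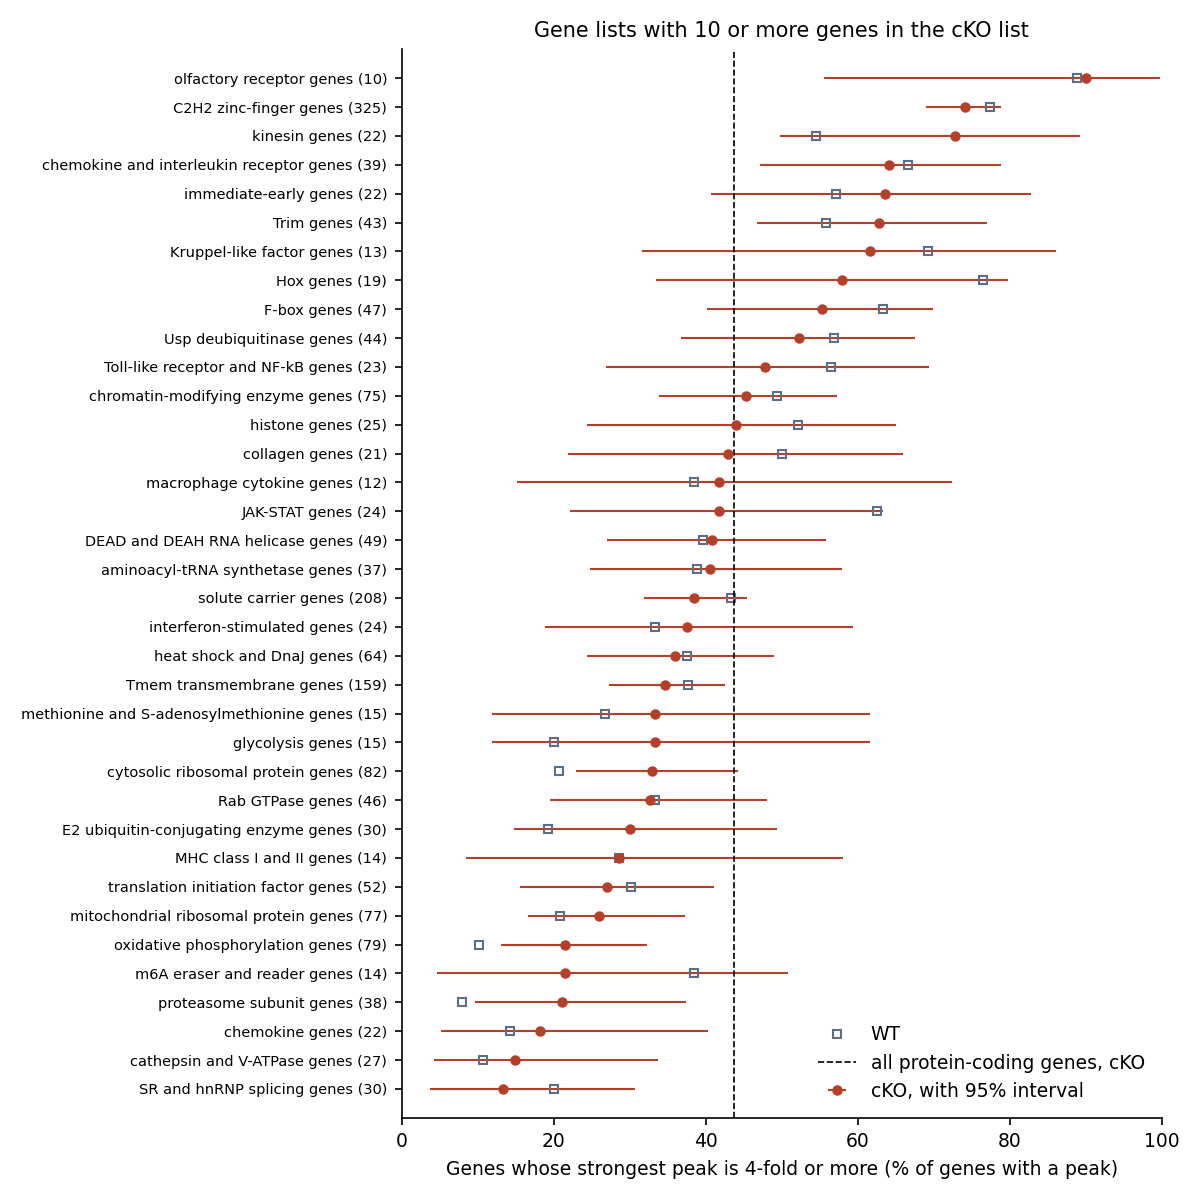
Share of genes with a cKO peak whose strongest peak reached 4-fold (percent), for 36 gene lists, each with at least 10 such genes (number in parentheses). Filled points are the cKO shares with exact 95% intervals for counting error, open squares the WT shares, and the dashed line the cKO share over all protein-coding genes (43.7%). C2H2 zinc-finger genes (74.2%) stand high and splicing genes (13.3%) lowest. The olfactory receptor share is the highest drawn, but it rests on the 10 of 1093 genes in which a peak was called and does not describe the family.

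Families of abundant housekeeping transcripts had shares below the 43.7% of all genes, although the interval of the cytosolic ribosomal protein genes included that level. Among cytosolic ribosomal protein genes 27 of 82 had a peak of 4-fold or more (32.9%, 22.9 to 44.2), among oxidative phosphorylation genes 17 of 79 (21.5%, 13.1 to 32.2), among proteasome genes 8 of 38 (21.1%), among mitochondrial ribosomal protein genes 26.0%, among translation initiation factors 26.9%, among cathepsins and V-ATPase subunits 4 of 27 (14.8%) and among SR and hnRNP splicing genes 4 of 30 (13.3%). In several of these the WT share was lower still, with 17 of 82 ribosomal protein genes (20.7%), 8 of 79 oxidative phosphorylation genes (10.1%) and 3 of 38 proteasome genes (7.89%). Among their strongest members were Rpl35a at 3.58 (3.06 in the WT list), Rps10 at 3.52 (2.88) and Rps15a at 3.23 (1.80), the complex I subunits Ndufs4 at 4.68 (3.22) and Ndufs1 at 2.65 (1.46), and Psmb5, a catalytic proteasome subunit, at 2.42 (1.75).

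In several of these families the values also stood above those of the WT list. Of 96 matched peaks in ribosomal protein genes 86.5% (78.0 to 92.6) had the higher value in the cKO list (median difference 0.27), and of 91 in oxidative phosphorylation genes 87.9% (79.4 to 93.8; 0.25), against 54.8% and 0.04 over all matched peaks. Ribosomal protein genes have many processed pseudogenes, and zinc-finger genes near-identical copies, so reads can be split among them and their values are less certain. Proteasome genes had 75.5% of 53 peaks (0.16), splicing genes 71.6% of 67 (0.12), chemokines 77.3% of 22 (0.14) and glycolysis genes 75.9% of 29 (0.14). By gene, the strongest peak was higher in the cKO list for 73 of 82 ribosomal protein genes, 67 of 79 oxidative phosphorylation genes and 31 of 38 proteasome genes. Zinc-finger genes were on the other side, with 123 of 315 genes higher and a median difference of -0.06 over 404 matched peaks. The place of the peak moved with the family. The strongest peak lay within 200 nt of the transcript end in 46 of 82 ribosomal protein genes (56.1%), 43 of 79 oxidative phosphorylation genes (54.4%), 18 of 38 proteasome genes (47.4%) and 11 of 22 chemokine genes (50.0%), against 3039 of 11980 protein-coding genes (25.4%) and 30 of 324 zinc-finger genes (9.26%). How much of the family values goes with that place was not tested. Mitochondrial ribosomal protein genes differed in this, with the strongest peak at the stop codon in 37 of 77 (48.1%, against 19.3% of all genes) and a smaller difference of 0.08 over 80 matched peaks.

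All 24 JAK-STAT genes had a cKO peak, 10 of them (41.7%, against 43.7% of all protein-coding genes with a peak) at 4-fold or more, and 15 (62.5%) had one in the WT list. Of the 18 WT peaks of 4-fold or more in these genes 17 overlapped a cKO peak and 12 one of 4-fold or more, where 85.5% and 66.5% of such WT peaks in protein-coding genes did. The strongest peak was higher in the cKO list for 8 of the 24, against 50.5% of all genes with a peak in both lists. Jak1 had 5 cKO peaks, and its 3' UTR peak stood at 2.46 (2.86 in the WT list). Il6st, the shared signalling chain of the interleukin-6 family, was at 3.15 (3.25). Among the inhibitors, Socs2 had 8 cKO peaks. Its strongest, at 2.91 (adjusted p of 8.80e-05, as listed by the authors), overlapped a WT peak of 1.62. The strongest WT peak of Socs2, at 2.38, lay elsewhere in the gene, over cKO peaks of 1.68 and 1.89. Socs3 was at 2.24 (2.46), Cish at 2.34 (2.63), Socs5 at 3.44 (4.07) and Socs6 at 4.04 (4.33). Socs1 had 1 cKO peak at 1.61, over a WT peak of 1.35, and a narrow WT peak at 5.12 (adjusted p of 5.31e-04) had no cKO counterpart. Spred2, an inhibitor of the Ras and MAP kinase pathway, stood at 1.86 (2.23).

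Innate sensing genes had peaks in 23 of 25 cases, 11 of them (47.8%, close to the 43.7% of all genes) at 4-fold or more, and none in Tlr5 and Tlr9. Of the 13 WT peaks of 4-fold or more in that list all 13 were overlapped in the cKO list, 11 of them at 4-fold or more, where 85.5% and 66.5% of such WT peaks in protein-coding genes were. Tlr4, the receptor for lipopolysaccharide, stood at 4.21 (4.40 in the WT list), Traf6, its ubiquitin ligase, at 3.52 (3.89), the kinase Irak2 at 3.13 (3.12) and Tlr3, a sensor of double-stranded RNA, at 3.00 (3.45). The strongest peak was higher in the cKO list for 5 of 23 of these genes (50.5% over all genes).

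Immediate-early genes, whose messengers are made and destroyed within minutes of a stimulus, had a peak in 22 of 22 cases and one of 4-fold or more in 14 (63.6%, against 43.7% of all genes). All 12 WT peaks of 4-fold or more in them were overlapped by cKO peaks of that strength, where 66.5% of such WT peaks in protein-coding genes were. Besides Jun, Myc stood at 3.93 (3.81) and Ier5 at 3.46 (3.66). Fosb stood at 7.88, with an adjusted p of 1.31e-04, as listed by the authors, and no WT peak in the gene. Only 1 of 22 had its strongest peak at the transcript end, and 7 of 21 had a higher strongest peak in the cKO list (50.5% over all genes).

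Cytokines, receptors and interferon genes varied within their lists. The counts are to be read against the 54.6% of protein-coding genes with a cKO peak, and the 43.7% of those with one of 4-fold or more. Macrophage cytokines had a peak in 12 of 18 genes, with Il6 at 4.53 (3.34 in the WT list), Csf1, the gene of M-CSF, at 3.12 (3.73), Tgfb1 at 2.83 (1.62) and Lif at 2.51 (2.53), and with none in Csf2 and Ifnb1. Among chemokines only 4 of 22 reached 4-fold, led by Cxcl5 at 3.84 (2.52), Cx3cl1 at 2.68 and Ccl12 at 2.62. Chemokine and interleukin receptors had 25 of 39 at 4-fold or more, with Cx3cr1 at 6.65 (6.58), Ccr7 at 4.51 (4.27) and Il21r at 4.41 (4.27). Guanylate-binding proteins, which attack vacuoles of intracellular pathogens, had 6 of 8 genes at 4-fold or more, with Gbp5 at 4.56 (4.01) and Gbp7 at 3.60 (3.78). Interferon-stimulated genes had 9 of 24 (37.5%), with Eif2ak2, the double-stranded RNA kinase PKR, at 3.34 (3.41), and Ifit2 at 2.97 (3.38). MHC genes had 4 of 14 (28.6%), among them Ciita, the activator of class II genes, at 2.73 (3.80) and H2-D1 at 2.40 (1.01). Of the 15 macrophage markers 6 had a peak of 4-fold or more, close to the 43.7% of all protein-coding genes with a peak, among them the transcription factors Cebpb at 3.15 (3.27) and Maf at 2.98 (3.40) and the Fc receptor Fcgr1 at 3.61 (3.64).

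Transcripts that carry m6A in other cell types had a peak in 9 of 12 genes, 7 of them at 4-fold or more. Besides those given above, Bcl2, an inhibitor of cell death, stood at 3.36 (3.34) and Klf4 at 2.79 (3.17). Families that macrophages barely transcribe were nearly bare, with 10 of 1093 olfactory and 2 of 327 vomeronasal receptor genes holding a peak. Of the 10 olfactory receptor genes 9 had a peak of 4-fold or more. The 10 are counted only because a peak was called in them, so that share describes this choice and not the family. The strongest, Olfr1238 at 8.06, had an adjusted p of 9.10e-05, as listed by the authors.

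Of the genes with a cKO peak, 13022 (93.1%) also had a WT peak, and 971 had none. The genes in the cKO list alone had fewer peaks with larger adjusted p. A single peak was listed in 85.2% of them, against 30.2% of the genes in both lists, and the median adjusted p of the strongest peak was 0.00155 against 1.22e-21. Their median strongest log2 was 1.77 (1.88 in genes in both), and 40.5% reached 4-fold. Fewer were protein-coding, 47.8% against 88.5%. In turn, 810 genes had a WT peak and no cKO peak.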

How the data were processed

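The deposited data used were a peak list for each genotype. Each row gives, per the file headers, the authors' log2 fold of IP over input at a peak with their p-value and adjusted p-value, and every p lies below 0.05. Each list comes from 1 IP and 1 input library. A deposited gene table gave FPKM of the cKO input for genes with a differential peak. It was used as a filter in an alternative and is quoted for some named genes. The submitters' processing notes name mm10, fastp, HISAT2, HOMER, ChIPseeker, StringTie and edgeR without roles or versions. The peak caller is not given in the sources used here, nor are the scaling of IP to input and the read depth, so the precision behind each value is unknown.

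Peak starts count from 0 and were made 1-based. Lists were overlapped with bedtools 2.31.1 on the same strand by at least 1 bp. Matched peaks overlapped one to one. Outer ends span introns, and 16.2% of cKO peaks span over 5000 bp. The files give no exonic blocks, so the outer ends were compared, and exonic parts were cut with the GENCODE M21 exons of the listed transcript. Midpoints of exonic parts were placed within 200 nt of the transcript end, the stop codon or the start, in that order, and otherwise in 5' UTR, coding sequence or 3' UTR; shares by strength class count each window on its own. Motif densities used exonic parts of at least 50 nt. Positions and exons refer to the longest coding transcript. Intervals (95%) are Clopper-Pearson exact ones, for counting error alone. The steps were tested on simulated data.

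Members and gene lists were chosen with earlier results of these data known. Named genes were the 10 with most peaks, the 10 peaks of lowest adjusted p (ties by log2), the 10 of highest log2, the 10 strongest at transcript starts and stop codons among the lowest 10% of adjusted p, up to 4 members per list by strongest log2 at adjusted p below 0.05 and up to 2 members without a peak, and the m6A machinery with Mat2a, Jak1, Spred2, Socs1, Socs2, Socs3 and Cish. Symbols of the Gm and Rik series and mitochondrial genes were left out. A few genes and 1 list that the rule would name are not reported here, while counts over lists include them. Epcam, Lgr5, Cdh1, the keratins and Cldn3 came from the marker lists. In the gene lists, WT values in parentheses are the strongest WT peak of the gene, which can lie at another place than the cKO peak.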

Additional observations from a re-analysis of the deposited data

How the results depend on the processing

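No paired analysis was possible because each group has 1 library and the labels give no replicate numbers, and no replicate could be left out. Of 71 alternatives, 39 stayed within the limits set, 31 moved and 1 reversed. The share of peaks named 3' UTR (55.7%) was 58.8% for peaks spanning at most 5000 bp and 62.8% for peaks of 2-fold or more. With a log2 of 1.5 in place of 2, the 6141 genes with a strong peak became 10200. The overlap with WT peaks (71.3%) was 63.1% for peaks spanning at most 5000 bp, 46.1% when 50% of both peaks had to overlap and 67.6% for exonic parts. The share of placed peaks at the transcript end (15.1%) was 17.6% for peaks spanning at most 5000 bp, 28.2% when any part of the peak counted, and 19.95% on the transcript listed for the peak, an alternative chosen after seeing the data. The motif density at 4-fold or more relative to weaker peaks was 1.05 for DRACH and 1.21 for GGACT. Of 46 lists, 18 stood above the share of all genes at 4-fold and 30 at 2-fold. The median difference at matched peaks (0.042) was 0.070 for peaks spanning at most 5000 bp and 0.026 for a 50% overlap. At the stop codon it went from -0.013 to 0.013 for peaks spanning at most 5000 bp, while the transcript-end value of 0.23 was the same under the alternatives run for it. The share of strong zinc-finger genes (74.2%) was 60.9% for short-span peaks and 65.4% for genes with a listed cKO input FPKM of at least 5.

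With single libraries and unknown depth, differences between the lists have no error. The 145 peaks with a log2 of at least 6 had a median adjusted p of 1.83e-04, against 0 for the 1218 surest peaks. Some other named genes had a low listed cKO input FPKM, with 0.07 for Shmt1, 0.32 for Cxcl5, 0.36 for Ciita and 0.19 for Kcnq1ot1. Others had far more, such as Jun with 48.5.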

Other observations

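Noncoding RNAs held a small and strong part of the cKO map. Protein-coding genes had 92.6% of the peaks, of which 18.6% reached 4-fold. Antisense genes had 884 peaks in 629 genes (35.1% at 4-fold or more), long intergenic RNAs 487 peaks in 302 genes (47.0%, median log2 of 1.91), and RNAs from bidirectional promoters 90 peaks in 66 genes (56.7%, median 2.16). Processed pseudogenes had 502 peaks in 455 genes (29.3%), and reads of their parent genes may be counted in them. Antisense genes overlap other genes, and whether peaks were called by strand is not given in the sources used here.

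A list of long noncoding RNAs, most of them nuclear, had a peak in 7 of 7 matched genes, against 25.2% of all annotated genes. A peak of 4-fold or more was found in 5 (71.4%, against 43.9% of all annotated genes with a peak). The 10 WT peaks of 4-fold or more in them were all overlapped by cKO peaks of that strength, where 5069 of 7731 in all annotated genes were. Kcnq1ot1, an imprinted RNA that silences neighbouring genes, had 13 cKO peaks with a strongest log2 of 5.20, and 4 WT peaks with 5.65. Neat1, the scaffold of paraspeckles, stood at 3.28 (3.35), Malat1 at 2.24 (2.14) and Meg3 at 3.87 (3.43). Over their 13 matched peaks the median difference, cKO minus WT, was -0.02. Host genes of small nucleolar RNAs had a cKO peak in 7 of 15 genes (46.7%, against 25.2% of all annotated genes). A WT peak was found in 9, and 2 of those had no cKO peak. By strongest peak, 5 of the 7 stood higher in the cKO list (71.4%, against 50.5% of all genes with a peak in both lists). Among them were Snhg15 at 2.39 (1.01), Snhg12 at 2.29 (1.38) and Snhg20 at 2.81 (1.81).

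Aminoacyl-tRNA synthetases, which charge transfer RNAs, had a peak in 37 of 37 genes, against 54.6% of all protein-coding genes. A peak of 4-fold or more was found in 15 of them (40.5%, near the 43.7% of all genes with a peak). The strongest were Aars at 5.10 (5.40), Mars2 at 5.07 (5.45), Ears2 at 4.46 (3.35) and Aars2 at 3.89 (3.87). All 15 listed glycolysis genes had a peak, 5 of them (33.3%) at 4-fold or more, with Gapdh at 3.78 (1.76) and Pfkp at 2.94 (1.91). Histone genes, whose messengers mostly lack a poly(A) tail, had a peak in 25 of 82, with Hist1h1c at 3.74 (3.89).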
